A study of Mus musculus with 4 samples.

Results

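Tnfaip3, Icam1 and Bcl3 are 3 genes linked to the transcription factor NF-kB. They were chosen by exact gene symbol in the authors' 2 deposited comparison tables, where each had 1 transcript cluster, the unit that Clariom S arrays use for a gene. They are 3 of 3059 clusters with a single symbol there, among 22206 clusters on the array. RNA came from primary keratinocytes, the epithelial cells of the epidermis, grown from male mice. The 4 groups, each with 1 array, were HMGB1 KO cells with recombinant IL-4 at 100 ng/ml, untreated HMGB1 KO cells, WT cells with the same IL-4, and untreated WT cells, all cultured for 12 h in EpiLife medium. The design text calls the mutant line K5-HMGB1; the sources used here do not say how the allele was made, what strain and age the mice were, or whether dishes shared an animal. With 1 array per group no value below has a replicate error and no p-value was computed, so "rose" and "fell" mean a log2 difference of at least 1, that is 2-fold, in clusters whose highest value reached the median of all cluster values, 5.13. This left 11854 clusters. Precision is limited by the number of arrays.

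NF-kB is a family of paired Rel proteins that IkB proteins hold in the cytoplasm until signals from receptors for TNF, interleukin-1 or microbial products activate the IkB kinases. In skin it is best known for the response of keratinocytes to injury and inflammation. Several of its targets encode its own inhibitors. Tnfaip3 encodes A20, a ubiquitin-editing enzyme that ends signalling upstream of the IkB kinases. Bcl3 encodes a nuclear IkB-like protein that binds NF-kB p50 and p52 dimers on DNA and can raise or lower transcription. Icam1 encodes a surface adhesion protein of the immunoglobulin superfamily, to which leukocyte integrins bind. All 3 are protein-coding: Tnfaip3 (cluster TC1000001813.mm.2) spans chr10:19000910-19015410 in GRCm38, Icam1 (TC0900000184.mm.2) spans chr9:21015940-21028814, and Bcl3 (TC0700002503.mm.2) spans chr7:19808462-19822824. Which exons or untranslated parts the probes cover is not stated in the files.

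The promoters are shown because Tnfaip3 and Icam1 moved one way with IL-4 and Bcl3 the other, while each holds letters like an NF-kB site. Each line gives the 250 bases before the annotated start from RefSeq (GRCm38.p6), 5′ to 3′ on the gene's strand, and capitals mark matches to GGAANNNCC on either strand, a core of the NF-kB (kappaB) motif that was picked after these sequences had been read. Tnfaip3 (chr10:19015411-19015660, minus strand), Icam1 (chr9:21015690-21015939, plus strand) and Bcl3 (chr7:19822756-19823005, minus strand) read as follows.
Tnfaip3: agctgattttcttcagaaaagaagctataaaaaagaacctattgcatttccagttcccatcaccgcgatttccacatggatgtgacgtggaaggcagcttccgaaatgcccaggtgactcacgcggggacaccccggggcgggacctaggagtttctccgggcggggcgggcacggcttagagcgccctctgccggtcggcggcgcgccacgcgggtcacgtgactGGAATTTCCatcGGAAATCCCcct
Icam1: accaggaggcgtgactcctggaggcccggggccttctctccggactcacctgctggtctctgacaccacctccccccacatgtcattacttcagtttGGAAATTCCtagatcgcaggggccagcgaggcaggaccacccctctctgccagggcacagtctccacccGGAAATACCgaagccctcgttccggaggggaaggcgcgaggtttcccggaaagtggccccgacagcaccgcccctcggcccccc
Bcl3: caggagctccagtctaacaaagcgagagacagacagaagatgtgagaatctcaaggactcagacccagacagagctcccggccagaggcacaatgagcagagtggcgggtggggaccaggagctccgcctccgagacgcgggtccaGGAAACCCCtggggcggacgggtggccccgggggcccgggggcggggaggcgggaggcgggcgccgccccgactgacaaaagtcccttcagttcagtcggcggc

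Tnfaip3 had 2 matches, starting 24 and 12 bases before the start, and Icam1 had 2, starting 153 and 84 bases before it. Bcl3 had 1 match, 104 bases before the start used. That start is not the outermost, since the gene's annotated span reaches 19822824, inside the printed window. A second annotated start of Tnfaip3 had 1 match. Of 32851 mouse promoter windows of this length, 15.7% held at least 1 match and 1.46% held 2 or more. In the windows of named genes that rose with IL-4 in WT the shares were 18.1% and 2.56% of 1213, and in those of named genes that fell they were 15.2% and 0.777% of 1029. The other motifs searched on both strands were TTCNNNGAA and TTCNNNNGAA, bound by STAT factors, and TGANTCA, bound by AP-1, and none of the printed matches overlap them. Icam1 held TTCNNNGAA once (7.02% of all windows held it), Tnfaip3 held TTCNNNNGAA once (5.85%) and TGANTCA once (6.75%), and Bcl3 held none of the 3. A match is a description of letters and not a measured site.

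The arrays were alike in scale, with medians of 5.10 to 5.15. Hmgb1, the targeted gene, read 7.60 in KO with IL-4 and 7.97 in untreated KO, against 14.17 in WT with IL-4 and 14.71 in untreated WT. All values are the deposited log2 expression, taken at face value, although clusters above 16, the ceiling of a 16-bit scanner, number 233 to 245 per array and any further transformation of the values is not stated in those sources. Of the values of 5222 negative control rows, 95% lay under 9.21. A value below that is called dim here, and a difference that includes one has an uncertain size. Of 8 keratinocyte markers 3 had a named cluster, Epcam, Krt1 and Krt10, and the basal keratins Krt5 and Krt14 were not among them. The epithelial adhesion gene Epcam read 15.14 in KO with IL-4, 13.23 in untreated KO, 14.92 in WT with IL-4 and 12.55 in untreated WT. Krt1 and Krt10, keratins of differentiating suprabasal cells, went the other way. Krt1 read 7.99 in KO with IL-4, 17.35 in untreated KO, 7.49 in WT with IL-4 and 16.62 in untreated WT, and Krt10 read 8.70, 13.94, 6.80 and 11.98 on the same arrays. Both were dim with IL-4, and both fell (Krt1 -9.36 in KO and -9.14 in WT, Krt10 -5.24 and -5.17). Leukocytes and endothelial cells also express Icam1. Of 14 leukocyte markers only Cd68 and Cd14 had a named cluster. The lysosomal protein gene Cd68 read 10.15 in KO with IL-4, 11.53 in untreated KO, 10.71 in WT with IL-4 and 13.18 in untreated WT, and Cd14 was dim on all 4 arrays, from 4.39 to 5.90. Of 8 endothelial markers Flt1, Kdr and Emcn had one, and Kdr and Emcn were dim on all 4 arrays. Flt1 read 6.25 in KO with IL-4, 5.81 in untreated KO, 9.69 in WT with IL-4 and 6.55 in untreated WT, and only the WT value with IL-4 exceeded 9.21. It differed by 0.45 with IL-4 in KO and rose by 3.14 in WT. The part of these cells in the values below was not tested.

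Tnfaip3 was higher with IL-4 in both genotypes. In bulk cultures such as these, more cells with the transcript and more transcript per cell cannot be told apart. It read 14.75 in KO with IL-4, against 12.27 in untreated KO, and 15.20 in WT with IL-4, against 12.15 in untreated WT. Both IL-4 values lay above both untreated values, and none of the 4 was dim. The arrays are not replicates of each other, and the share of all clusters with this order was not computed. A difference between the WT arrays was also a condition of the gene being named, though its direction was not. IL-4 minus untreated was 2.48 in KO, a 5.58-fold rise, and 3.05 in WT, an 8.27-fold rise. Across the 11854 clusters 8.93% rose in KO and 10.7% rose in WT, and Tnfaip3 had rank 124 among rises in KO and rank 63 in WT.

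Icam1 rose with IL-4 in both genotypes too. It read 12.47 in KO with IL-4, against 10.12 in untreated KO, and 13.14 in WT with IL-4, against 10.36 in untreated WT. None of the 4 values was dim. The gene rose by 2.35 in KO, or 5.08-fold, and by 2.78 in WT, or 6.86-fold, with rank 142 among rises in KO and rank 94 in WT.

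Bcl3 had the opposite direction. It read 6.73 in KO with IL-4, against 9.93 in untreated KO, and 7.96 in WT with IL-4, against 10.75 in untreated WT. Both IL-4 values were dim and both untreated values were above 9.21. IL-4 minus untreated was -3.20 in KO and -2.79 in WT, a fall of 9.22-fold and 6.93-fold if the dim values are taken as they stand. In KO 9.33% of clusters fell and in WT 9.26% fell, and Bcl3 had rank 137 among falls in KO and rank 236 in WT. With dim values raised to 9.21, the difference was -0.72 in KO, which is under 2-fold, and -1.53 in WT.

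The WT response is what gave all 3 genes a symbol, since the authors' deposited table of that comparison holds clusters that differ at least 2-fold, so passing 2-fold there is a condition of being named. That table gives size of fold change as 8.27 for Tnfaip3, 6.86 for Icam1 and 6.93 for Bcl3. The KO response uses 2 other arrays. In it all 3 genes passed 2-fold in the WT direction, as did 52.4% of 1219 named clusters that rose in WT and 65.8% of 1069 that fell.

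**Figure D1:**
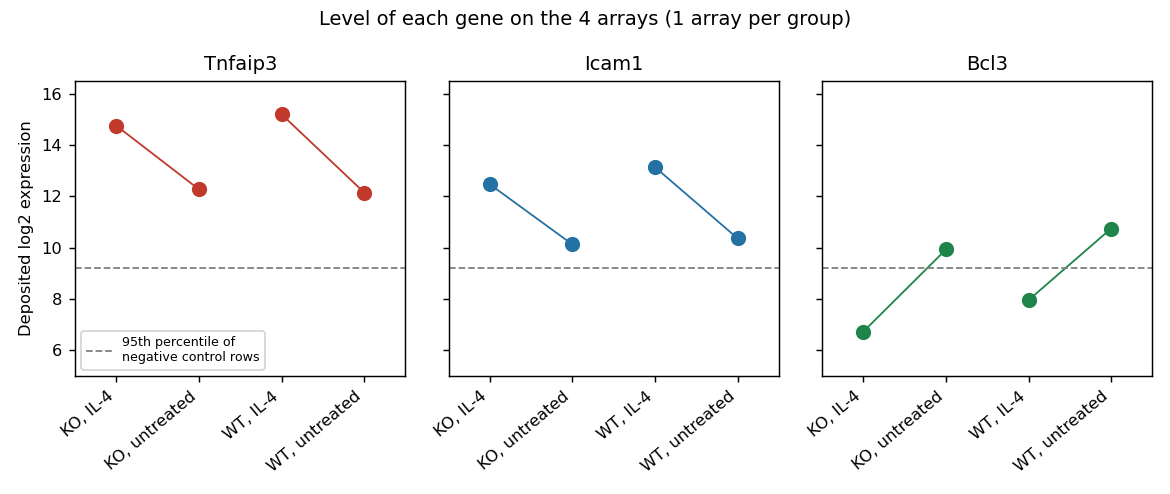
Deposited log2 expression of Tnfaip3, Icam1 and Bcl3 on the 4 arrays, 1 point per array, with lines joining the 2 arrays of a genotype and a dashed line at 9.21, under which 95% of negative control values lie. Tnfaip3 and Icam1 are higher with IL-4 in KO and in WT, and Bcl3 is lower, with both IL-4 values under the dashed line.

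The genotype comparison asks whether the line labelled HMGB1 KO differs at these genes. With IL-4 all 3 genes read lower in KO, and only Bcl3 passed 2-fold. KO minus WT with IL-4 was -0.45 for Tnfaip3, -0.67 for Icam1 and -1.23 for Bcl3. In this contrast 3.78% of clusters were at least 2-fold lower and 1.7% at least 2-fold higher. Among clusters whose mean level lay within 0.5 of the gene's own, a difference of at least this size in either direction was seen in 18.8% of 528 for Tnfaip3, 10.6% of 1011 for Icam1 and 3.12% of 1378 for Bcl3. Both Bcl3 values are dim, and 18.3% of the negative control rows differed by at least as much between these arrays. With dim values raised to 9.21 the Bcl3 difference was 0. Of 10 fibroblast markers, Vim (1.98) and Sparc (1.71) had a named cluster and were higher in KO in the same contrast, as were Tyrp1 (1.62) and Dct (1.56) of 6 melanocyte markers, while Pmel (0.68) and Tyr (0.08, dim on all arrays) were under 2-fold. The keratinocyte marker Krt10 was 1.90 higher in KO, with both values dim, while Krt1 (0.50) and Epcam (0.22) were under 2-fold. The endothelial marker Flt1 was lower in KO (-3.43), where its value was dim. Kdr (-0.88) and Emcn (0.74), dim on all arrays, were under 2-fold and differed in direction. The leukocyte markers Cd68 (-0.56) and Cd14 (-0.17, dim on all arrays) were under 2-fold too. The part of these cell types in the 3 values was not tested. Bcl3 was listed in the authors' deposited table of this comparison, with size of fold change 2.34, and so again had to pass 2-fold to be there.

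In untreated cells none of the 3 genes differed 2-fold between genotypes. KO minus WT untreated was 0.12 for Tnfaip3, -0.24 for Icam1 and -0.82 for Bcl3. Bcl3, with both untreated values above the control rows, read 9.93 in KO against 10.75 in WT, and 5.81% of clusters of like level differed by as much. At least 2-fold differences were seen in 1.35% of all clusters upwards and 3.16% downwards. Tnfaip3 and Icam1 lay well inside the range of clusters of their level, of which 67.4% and 44.3% differed by at least as much. The direction in KO was lower under both treatments for Icam1 and Bcl3 and differed between treatments for Tnfaip3.

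Subtracting the WT response to IL-4 from the KO response gave -0.57 for Tnfaip3, -0.43 for Icam1 and -0.41 for Bcl3, so the rises were smaller and the fall was larger in KO. The spread of this quantity over all 11854 clusters was 0.54 (robust SD, from the median absolute deviation), which the value of Tnfaip3 exceeded slightly and the others did not. None of the 3 reached 2-fold, as 4.59% of clusters did upwards and 5.8% downwards. With dim values raised to 9.21, the value of Bcl3 was 0.82, so whether its fall was larger in KO rests on the dim values. A smaller rise in KO was also the usual case, found for 931 of 1219 named clusters that rose in WT (76.4%). Those clusters were chosen on the WT arrays that enter the comparison.

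**Figure D2:**
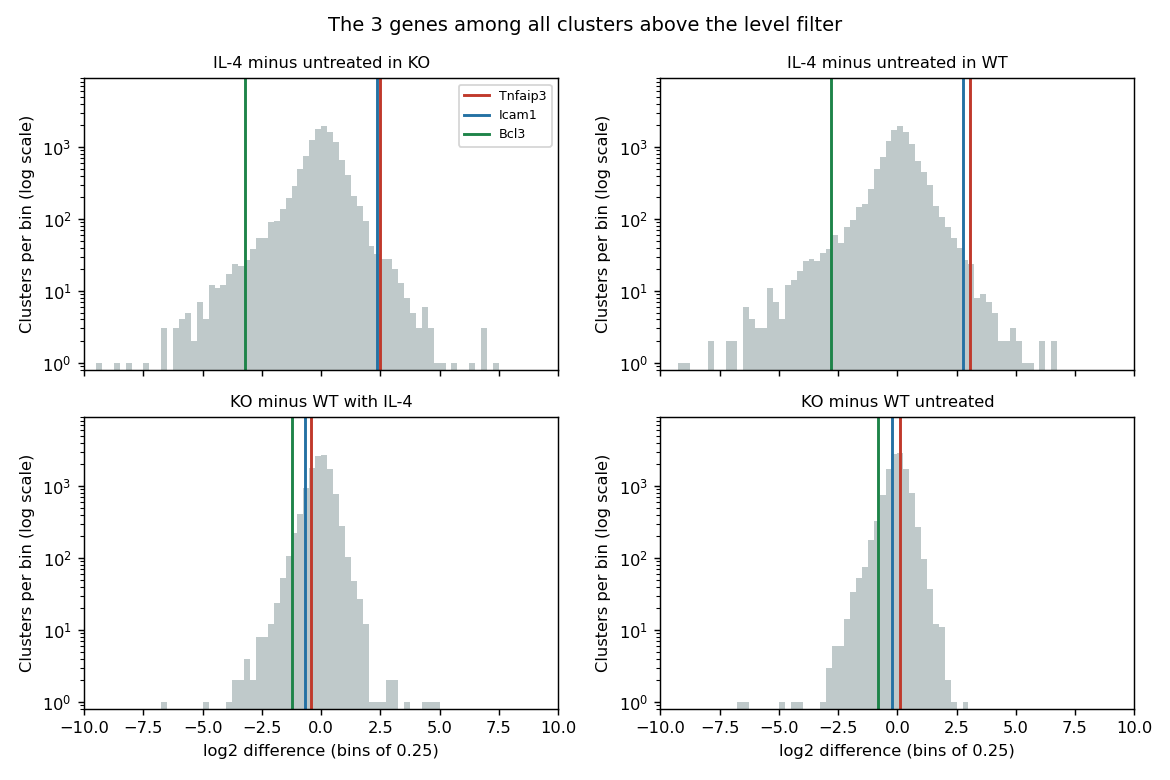
Number of clusters (log scale) by log2 difference in bins of 0.25, for IL-4 minus untreated in KO and WT (top) and KO minus WT with IL-4 and untreated (bottom), with a vertical line for each of the 3 genes. The genes lie in the tails of both IL-4 responses, and only Bcl3, with IL-4, lies beyond 1 in a genotype difference.

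The rest of the NF-kB pathway was read from 5 lists of 133 genes, 67 of which had a named cluster and 65 passed the level filter. Because a symbol exists only for clusters that differed about 2-fold in WT with IL-4 against untreated or between the genotypes with IL-4, the WT counts below follow largely from that choice, and 66 other listed genes could not be read. In KO 38 of the 65 rose and 12 fell, with a median of 1.18. In WT 47 rose and 15 fell, with a median of 1.55. Over all 2621 named clusters that passed the filter the median was 0.03 in KO and 0.48 in WT. Of the 45 listed genes other than Tnfaip3 and Icam1 that rose in WT, 36 also rose in KO, or 80%, against 52.4% of all named clusters that rose in WT. The listed genes had also risen further in WT, with a median of 2.29 against 1.38. At least 1 of the 4 values was dim in 41 of the 65 genes, and all 4 were in 16.

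Among the 4 Rel subunit and IkB genes with a named cluster, Bcl3 had the opposite direction to the others, if dim values are taken as they stand. Nfkb2, which encodes the p52 precursor, read 9.35 in KO with IL-4 against 7.46 untreated, and 9.56 in WT with IL-4 against 7.27 untreated. It rose by 1.89 in KO and 2.29 in WT, with both untreated values dim. Nfkb1, which encodes the p50 precursor, differed by 0.79 in KO, short of 2-fold, and rose by 1.02 in WT. The inhibitor gene Nfkbie rose by 1.18 and 1.42 in KO and WT, dim throughout. Bcl3 was the only one of these 4 genes that fell in either genotype, and its own IL-4 values were dim. The other 7 listed, Rela, Rel, Relb, Nfkbia, Nfkbib, Nfkbiz and Nfkbid, had no named cluster.

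Tnfaip3 had one of the 2 largest feedback responses in each genotype. Of 12 feedback genes with a cluster, 7 rose and 2 fell in KO, and 9 rose and 3 fell in WT. The share of those 9 that also rose in KO was 77.8%, against 52.4% of all named clusters that rose in WT. Their median rise in WT was 1.78, against 1.38. For the 3 that fell in WT the share was 66.7%, near the 65.8% of all named clusters that fell. Tnfaip2, a TNF-induced gene, read 11.36 in KO with IL-4 against 8.12 untreated, and 12.92 in WT with IL-4 against 9.92 untreated. Only its untreated KO value was dim. Tnip1, whose product binds A20 and ubiquitin, rose by 2.06 in KO, from a dim untreated value, and by 1.78 in WT. The adaptor gene Traf1 rose by 1.98 and 2.06, dim on all arrays, and Birc3, a ubiquitin ligase of the TNF receptor complex, read 11.97 in KO with IL-4 against 10.86 untreated, and 12.31 in WT with IL-4 against 10.91 untreated. Otud7b, a deubiquitinase related to A20, rose by 1.70 in KO and 1.34 in WT, with both untreated values dim. The deubiquitinase gene Cyld rose in WT by 1.28, from a dim untreated value, and differed by 0.56 in KO. Zc3h12a, which encodes an RNase that degrades cytokine mRNAs, differed by -0.39 in KO and rose by 1.44 in WT. The genes that fell in both genotypes were the phosphatase gene Dusp1 (-1.05 in KO and -1.24 in WT) and Pdlim2 (-2.09 and -1.51). Both IL-4 values of Pdlim2, whose product promotes loss of nuclear p65, were dim.

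Of 9 kinase and adaptor genes with a cluster, 5 rose and 1 fell in KO, and 6 rose and 3 fell in WT. The share of those 6 that also rose in KO was 83.3%, against 52.4% of all named clusters that rose in WT. Their median rise in WT was 2.13, against 1.38. For the 3 that fell in WT the share was 33.3%, against 65.8% of all named clusters that fell. Map3k14, the kinase that starts the pathway of p52 processing, read 10.20 in KO with IL-4 against 7.42 untreated, and 11.54 in WT with IL-4 against 7.72 untreated. It rose by 2.78 in KO and 3.82 in WT, with both untreated values dim. Ikbke, an IkB kinase relative, rose by 1.85 and 2.61, also with both untreated values dim. Irak3, an inhibitor of interleukin-1 receptor signalling, rose by 2.11 in KO and 1.64 in WT, whereas Irak2, which promotes that signalling, fell (-1.95 and -3.40, dim on all arrays).

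**Figure D3:**
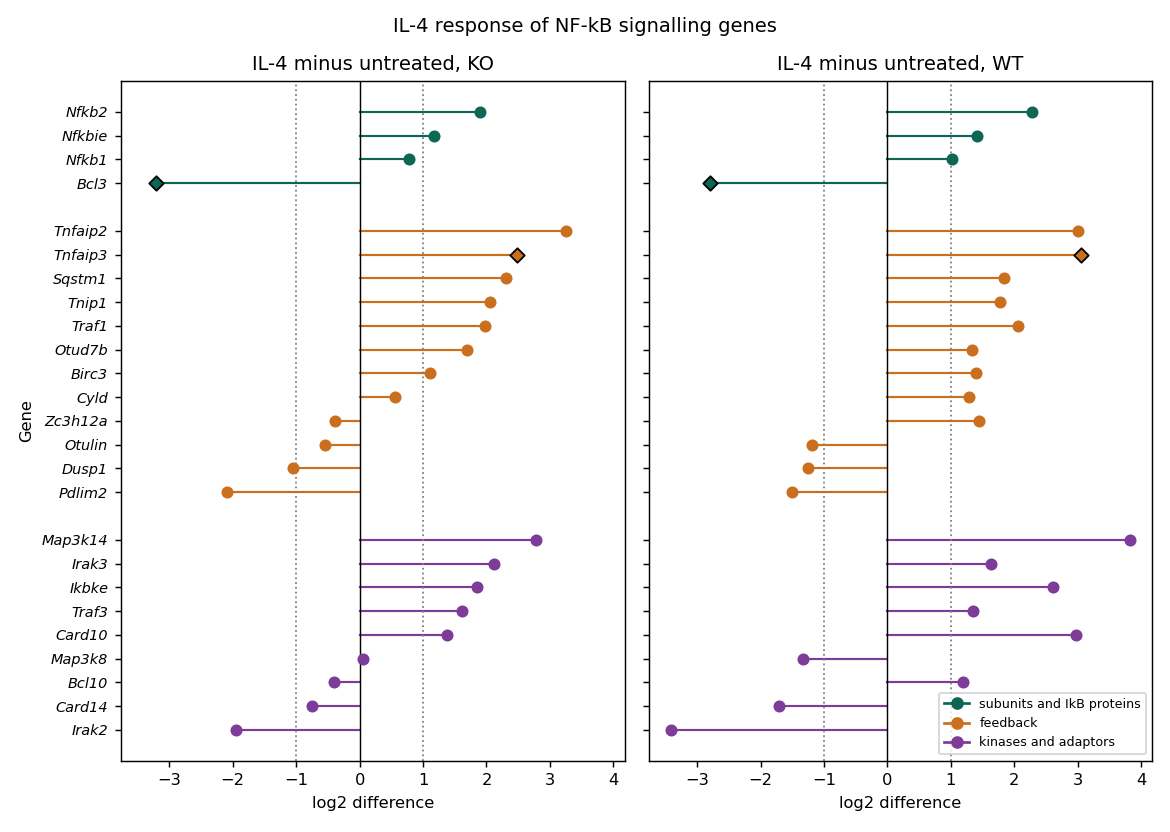
IL-4 minus untreated (log2) in KO (left) and WT (right) for the 25 subunit, feedback and kinase genes with a named cluster above the level filter, 1 point per gene, with diamonds for Bcl3 and Tnfaip3 and dotted lines at 2-fold. Bcl3 lies far to the left of the 3 other subunit and IkB genes, and Tnfaip3 is near the top of the feedback genes in both genotypes.

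Ligand and receptor genes went both ways, as named clusters did as a whole. Of 16 with a cluster above the filter, 5 rose and 7 fell in KO, and 8 rose and 7 fell in WT. Of all named clusters 1219 rose and 1069 fell in WT, and 52.4% and 65.8% of these passed 2-fold the same way in KO. For the listed genes the shares were 62.5% and 100%. Tnf, the classical inducer of Tnfaip3 and Icam1, read 9.32 in KO with IL-4 against 7.41 untreated, and 11.56 in WT with IL-4 against 6.95 untreated. It rose by 1.91 in KO and by 4.61 in WT if the dim values are taken as they stand. Both untreated Tnf values were dim, and the KO value with IL-4 was only just above the dim range. The size of both rises is therefore uncertain, most of all in KO. The interleukin-1 receptor gene Il1r1 rose by 1.63 and 2.30, and Il1a, one of its ligands, by 1.07 and 1.19. Other ligand genes of the interleukin-1 family fell in both genotypes: Il33 (-7.27 in KO and -7.96 in WT), Il18 (-5.40 and -6.26), Il1f8, Il1f9 and Il1f6. Both IL-4 values of Il33 and of Il18 were dim. Tnfrsf1a, the main TNF receptor, fell (-1.76 in KO and -1.87 in WT), and so did the receptor antagonist gene Il1rn. The latter read 8.64 in KO with IL-4 against 12.61 untreated, and 10.09 in WT with IL-4 against 13.46 untreated. Its KO value with IL-4 was dim.

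The responses of Icam1 lay close to the medians of the other NF-kB targets. Of 24 such genes above the filter, Icam1 included, 19 rose in KO and 21 in WT, and 1 fell in each, Serpinb2, with medians of 2.43 in KO and 2.97 in WT. The share of those 21 that also rose in KO was 90.5%, against 52.4% of all named clusters that rose in WT. The 21 had also risen further in WT, with a median of 3.05 against 1.38. Irf1, a transcription factor gene also induced by interferon, rose by 2.53 and 3.12, with both untreated values dim. Cflar, which encodes the caspase-8 inhibitor c-FLIP, rose by 1.98 and 2.30, and the cytokine genes Csf1 by 2.24 and 3.59 and Csf3 by 3.07 and 3.26, the last dim throughout.

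Between genotypes with IL-4, 3 of the 65 listed genes were at least 2-fold higher in KO and 15 lower, where 1.7% and 3.78% of all 11854 clusters were. The list's median was -0.26, against -0.14 over all named clusters and -0.02 over all 11854. Genes in the genotype table had been named for passing 2-fold in this contrast, and others through the WT IL-4 array that enters it. The shares over all clusters, most of them unnamed, are therefore not a like base. No excess in the list can be read from them. Among the targets, Mmp13 (-2.63), Mmp9 (-2.61), the complement gene C3 (-2.36), Ptgs2 (-1.72) and Ccl2 (-1.26) were lower in KO, and Lif (1.35) was higher. The KO values of Mmp13 and C3 with IL-4 were dim. Icam1, at -0.67, was not among the genes past 2-fold. Tnfaip2 was lower in KO by -1.56 with IL-4 and -1.81 untreated, where the KO value was dim. In untreated cells the list's median was 0.01. Of its genes 4 were at least 2-fold higher in KO and 6 lower, where 1.35% and 3.16% of all clusters were. This base is unlike too, since the untreated WT array entered the naming.

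**Figure D4:**
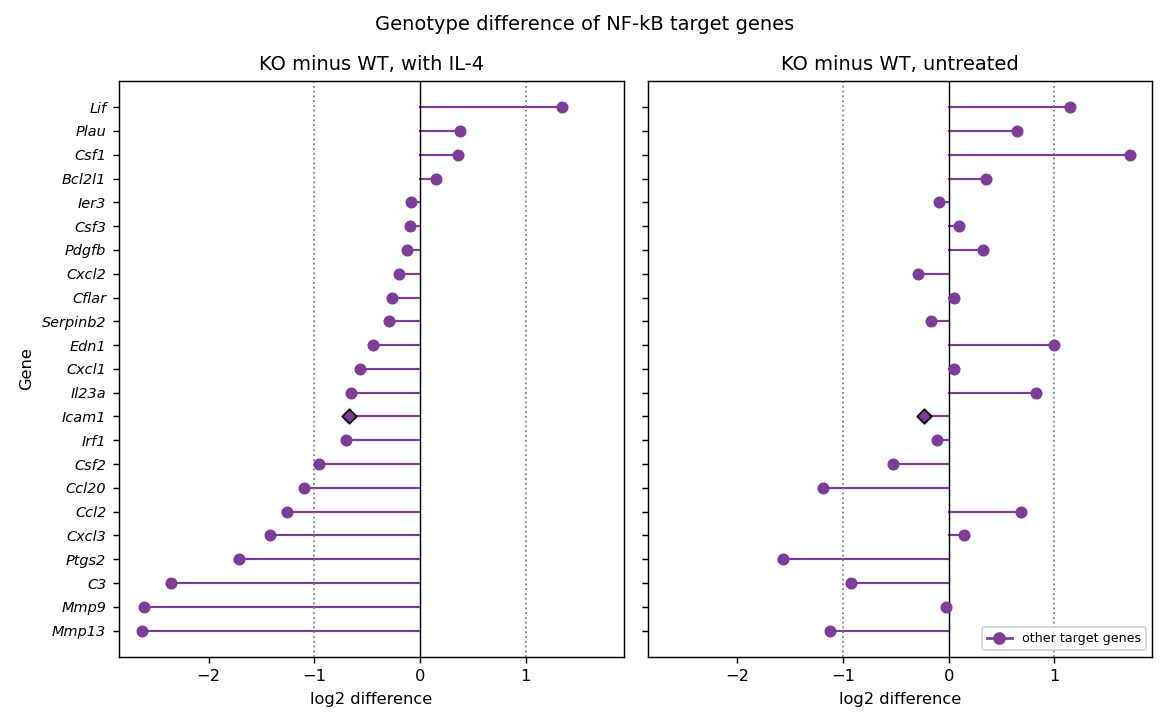
KO minus WT (log2) with IL-4 (left) and untreated (right) for 23 of the 24 NF-kB target genes above the level filter, 1 point per gene, ordered by the difference with IL-4, with a diamond for Icam1 and dotted lines at 2-fold. Icam1 lies inside the dotted lines under both treatments. With IL-4, 19 of the 23 genes shown read lower in KO, and the median over all named clusters was -0.14. Every gene shown was named through the WT array with IL-4 that enters this difference, so no excess can be read from the count.

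Icam1 was also set beside other adhesion genes of the immunoglobulin superfamily, nectin and related groups. Of 30 listed genes 9 had a named cluster, each named through the WT response. In KO 4 rose and 1 fell, and in WT 7 rose and 2 fell. Of those that rose in WT 57.1% rose in KO, near the 52.4% of all named clusters that rose in WT. Ncam1 read 14.50 in KO with IL-4 against 11.54 untreated, and 13.98 in WT with IL-4 against 10.96 untreated. It rose by 2.96 in KO and 3.01 in WT. Alcam rose by 1.89 and 1.62, and Pvr, a nectin-like protein gene, by 2.46 and 1.59, with both untreated Pvr values dim. Mcam differed by 0.35 in KO and rose by 3.18 in WT, and untreated KO read 11.93 against 10.06 in untreated WT. Pvrl4, now named Nectin4, fell (-2.71 in both genotypes), with both IL-4 values dim. The vascular adhesion genes Vcam1 and Sele, the family members Icam2, Icam4 and Icam5, and the integrin genes Itgal and Itgb2, whose products form a leukocyte receptor for Icam1, had no named cluster.

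Icam1 also answers to interferon, and IL-4 signals through STAT6. Of 26 listed STAT and interferon genes 9 had a named cluster, of which 3 rose and 3 fell in KO and 6 rose and 2 fell in WT. The share of those rising in WT that also rose in KO was 50%, near the 52.4% of all named clusters that rose in WT. Besides Irf1, Bst2 rose by 1.32 and 1.42 and Stat2 by 1.11 and 1.06, both dim on all arrays. The kinase gene Pim1 fell (-2.04 and -2.23). Ifitm3, an interferon-induced membrane protein gene, fell in KO (-1.29) and rose in WT (2.04).

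The profile of each gene over the 4 arrays was compared with 2620 other named clusters by the Euclidean distance between log2 values centred on each cluster's own mean. With so few arrays many genes look alike, and likeness here is a description. Gsap was nearest to both Tnfaip3 (distance 0.22) and Icam1 (0.18), and Irf1 was the second nearest to Tnfaip3 (0.25) and the fifth nearest to Icam1 (0.28). Others near Tnfaip3 were Pdgfb (0.27), Nppb (0.32) and Azin2 (0.33), and others near Icam1 were Itpr1 (0.24), Pcdh7 (0.25) and Slco2a1 (0.27). Icam1 took place 6 for Tnfaip3, and Tnfaip3 took place 7 for Icam1, at 0.36. Bcl3 had other neighbours: Xkrx (0.21), Efna3 (0.29), an ephrin ligand gene, Gdpd1 (0.34), Csta1 (0.35), a cysteine protease inhibitor gene, and Nrarp (0.35), a Notch target. IL-4 minus untreated for these 5 genes lay between -3.35 and -2.82 in KO and between -3.21 and -2.53 in WT. All of them but Efna3 had both IL-4 values dim. Among the genes near Tnfaip3 and Icam1, Gsap, Azin2 and Itpr1 were dim on all arrays. Irf1, Nppb and Slco2a1 were dim untreated. Distances and sizes that rest on dim values are uncertain.

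**Figure D5:**
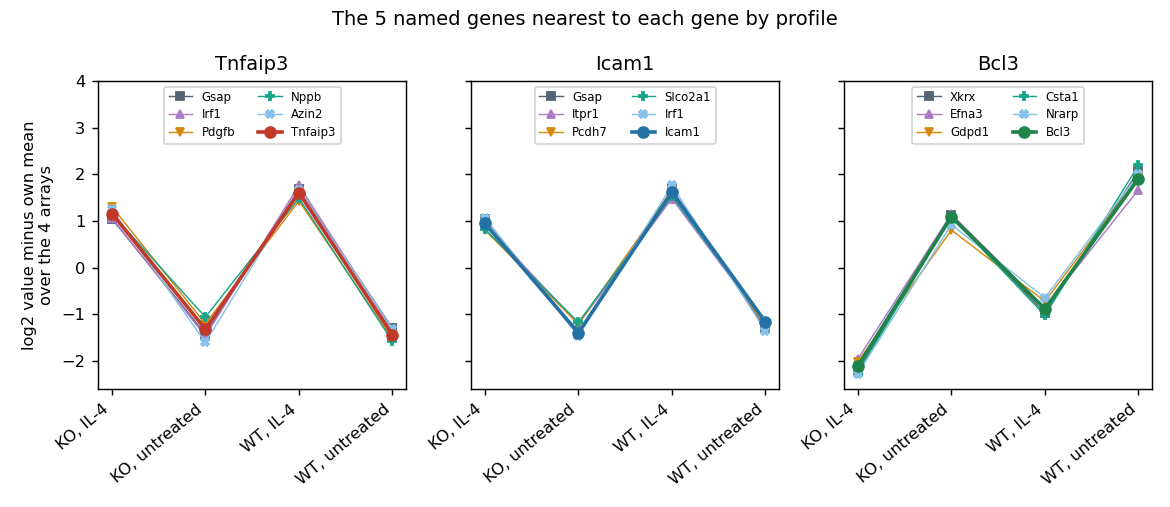
Log2 value minus the cluster's own mean over the 4 arrays for each of the 3 genes (thick line) and the 5 named genes nearest to it (thin lines), 1 point per array. The nearest genes of Tnfaip3 and Icam1 are high with IL-4 in both genotypes, and those of Bcl3 are low with IL-4 and lowest in KO.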

How the data were processed

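RNA was measured on 4 Clariom S Mouse arrays, 1 per group, with groups taken from the sample titles. Per the submitters' processing notes, the authors made the deposited log2 expression values with RMA and Affymetrix Expression Console 1.4; the design text instead names the Affymetrix Exon Array Computational Tool. RMA equalises array distributions, so a change in total RNA per cell cannot show. Each of the 2 tables the authors deposited also gives log2 values, which matched the arrays to within 0.014 and 0.068, and a signed linear fold change, positive for a higher value in the sample named first. Annotation is release na36 on mm10, per the file headers, and supplied every symbol.

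Differences of log2 values between 2 arrays were computed in Python 3.11.15 with pandas 2.3.3. Cyclic loess used limma 3.58.1. The counting of 2-fold differences was tested on simulated data. No columns were left unmapped. The rule for genes named with values took the 3 members, listed NF-kB, adhesion, STAT and interferon genes with a cluster, Hmgb1 and the 5 nearest profiles. Cell type markers were named from their own list, and some listed genes are named only as lacking a named cluster. The neighbouring genes under the closing observations lie outside the rule and were chosen after their values were seen. A listed target gene that is counted but not named or drawn is not reported here. The members and lists were chosen with earlier results of these data known. Promoters were taken from RefSeq on GRCm38.p6, the build also called mm10.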

Additional observations from a re-analysis of the deposited data

Results flagged for a closer look

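With 1 array per group, a value was singled out where an effect ran in opposite directions in the genotypes or the treatments, and for genes other than the 3 members where an IL-4 response reached 2-fold in one genotype and the responses differed at least 2-fold. None of these differences was tested. Tnfaip3, KO minus WT, was -0.45 with IL-4 and 0.12 untreated, both under 2-fold. IL-4 minus untreated was -0.39 in KO and 1.44 in WT for Zc3h12a, -0.41 and 1.18 for Bcl10, an adaptor of the CARD signalling complex that was dim on all arrays, and 0.061 and -1.33 for Map3k8, a kinase also dim on all arrays. Among the STAT and interferon genes it was -1.29 in KO and 2.04 in WT for Ifitm3, and -0.98 and 1.55 for Socs2, dim on all arrays.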

How the results depend on the processing

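No paired analysis was possible because each group has 1 array. For the same reason no replicate could be left out. Under equal array medians and under cyclic loess, which moved the median IL-4 response by -0.098 in KO and -0.12 in WT, all 15 differences of the 3 genes kept their sign and their side of 2-fold, as did the 4 that the authors' tables also give. With dim values raised to 9.21, Bcl3 went to -0.72 for IL-4 minus untreated in KO, to 0 for KO minus WT with IL-4 and to 0.82 for KO response minus WT response, and the other 12 differences kept their side. Counts of clusters at least 2-fold different were 2164 for the KO response, 2363 for the WT response, 650 for KO minus WT with IL-4 and 534 untreated. Requiring a highest value of at least 9.21 gave 1374, 1465, 321 and 250, a 1.5-fold threshold 4451, 4604, 2335 and 2022, and a 3-fold threshold 964, 1078, 135 and 117. Listed NF-kB genes past the threshold between genotypes numbered 18 with IL-4 and 10 untreated, and 30 and 24 at 1.5-fold, 6 and 2 at 3-fold.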

Other observations

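Named clusters within 200 kb of the 3 genes were read as well. Near Bcl3, on chromosome 7, Ceacam19 fell with IL-4 (-2.42 in KO and -2.56 in WT). So did the lipoprotein genes Apoc1 (-4.01 and -3.87) and Apoe (-2.51 and -1.05), while Pvr rose in both. Apoc1 was dim on all arrays, Ceacam19 was dim with IL-4 and Pvr was dim untreated, so these sizes are uncertain. Apoe was 2.33 higher in KO than in WT untreated. Near Icam1, on chromosome 9, the Janus kinase gene Tyk2, which acts in IL-4 and interferon signalling, rose by 1.08 in KO and 1.10 in WT. Dnmt1, the maintenance DNA methyltransferase gene, differed by -0.30 in KO and rose by 1.24 in WT, and only its WT value with IL-4 was not dim. Tnfaip3 had no named neighbour in this window.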
